A study of Homo sapiens with 15 samples.

Results

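The genes described here are 10 imprinted genes, H19, IGF2, MEG3, DLK1, CDKN1C, PEG3, PEG10, MEST, NNAT and PLAGL1, whose RNA levels were followed in long-term cultures of BEAS-2B cells, an established line of immortalized human bronchial epithelial cells. They were chosen by name, through their Entrez gene numbers, as a readout of epigenetic drift in culture, and all 10 had a row among the 28395 genes of the count table. Total RNA was sequenced after ribosomal RNA removal in 15 samples. At 24 h and at 15 weeks there were 2 samples of cells exposed to 50 µg/mL of polyethylene terephthalate nanoplastics (PET-NPLs, particles made from water bottles) and 2 samples of passage-matched control cells, and at 30 weeks there were 4 exposed and 3 control samples. All cells came from the same line, and the controls received no particles (0 µg/mL). By their labels, batch 1 holds all samples of 24 h and 15 weeks, and batch 2 those of 30 weeks. Nothing in the labels says whether replicates were separate cultures, so the p-values measure only the spread between these samples, which may be technical.

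Imprinted genes are expressed mainly from the maternal or the paternal copy, according to DNA methylation marks set in the germ line and kept through cell division by the zinc-finger protein ZFP57, its partner TRIM28 and the methyltransferase DNMT1. H19, MEG3 and CDKN1C are normally active on the maternal copy, and IGF2, DLK1, PEG3, PEG10, MEST, NNAT and PLAGL1 on the paternal copy. Many of them act on growth in the fetus and are turned down in adult tissue, and a change in their level in cultured cells is often followed as a sign of altered methylation. The counts hold neither alleles nor methylation, so they show how much RNA each gene gave and not from which copy. In bulk samples, fewer cells that express a gene and less RNA per cell cannot be told apart.

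The promoters of H19, MEST and MEG3 are shown because these genes changed with time or exposure and RefSeq windows were at hand for them. Each is the stretch of 250 bases before a RefSeq start site (GRCh38.p14), read 5′ to 3′ on the strand of the gene, and the capitals mark the hexamer TGCCGC, in either orientation (GCGGCA), which ZFP57 recognizes when it is methylated. Of the 35116 RefSeq windows of this length, 12.7% hold the hexamer.
H19, chr11:2001267-2001516, minus strand: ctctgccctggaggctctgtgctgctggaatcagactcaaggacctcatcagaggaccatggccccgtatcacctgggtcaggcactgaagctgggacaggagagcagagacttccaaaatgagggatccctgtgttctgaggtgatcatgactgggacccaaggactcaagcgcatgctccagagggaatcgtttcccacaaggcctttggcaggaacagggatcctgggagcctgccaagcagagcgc
MEST, chr7:130491835-130492084, plus strand: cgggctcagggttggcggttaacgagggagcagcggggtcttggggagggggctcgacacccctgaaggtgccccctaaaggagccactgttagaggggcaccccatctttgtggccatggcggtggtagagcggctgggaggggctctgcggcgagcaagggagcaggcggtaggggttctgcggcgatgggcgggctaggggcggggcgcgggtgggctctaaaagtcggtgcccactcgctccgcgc
MEG3, chr14:100825858-100826107, plus strand: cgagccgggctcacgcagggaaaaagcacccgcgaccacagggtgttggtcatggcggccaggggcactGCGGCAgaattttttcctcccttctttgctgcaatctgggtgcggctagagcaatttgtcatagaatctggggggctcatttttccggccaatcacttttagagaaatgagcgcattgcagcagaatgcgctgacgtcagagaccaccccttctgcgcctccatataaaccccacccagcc
The MEG3 window holds the hexamer at 1 place and 13 CpG dinucleotides, the MEST window has no match and 20 CpG, and the H19 window has no match and 4 CpG, against a median of 11 CpG over all windows. All 250 bases of the H19 window lie in annotated exons, against 10 in the MEG3 window and 0 in the MEST window. The H19 values are thus those of exonic sequence. RefSeq windows were at hand for 4 of the 10 genes, PLAGL1 being the other, and 5 of their 14 windows hold the hexamer, but 3 of these are overlapping MEG3 windows around the same site, so the share is not comparable with that of all windows. Of the 5 MEST windows, the one at chr7:130486097-130486346 holds it at 1 place. The PLAGL1 window at chr6:144008260-144008509, which it shares with the noncoding gene HYMAI, holds it at 2 places.

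H19 and MEST are also host genes of microRNAs, and the mature sequences are shown because the row of MIR335 moved with that of its host. Capitals mark the seed, bases 2 to 8, through which a microRNA pairs with its targets, and no seed is shared among the 4.
hsa-miR-335-5p (MEST intron): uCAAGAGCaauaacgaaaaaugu
hsa-miR-335-3p (MEST intron): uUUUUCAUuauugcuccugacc
hsa-miR-675-5p (H19 exon): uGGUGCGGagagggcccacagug
hsa-miR-675-3p (H19 exon): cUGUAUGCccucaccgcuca

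The depth ran from 23143202 to 31459990 counts, so that 3 counts, taken as the floor of detection, corresponded to 0.0885 to 0.129 CPM (counts scaled to the size of the library). In the check of the cell type, the keratins KRT8 and KRT18 were abundant (group means of 150 to 616 and 194 to 353 CPM), whereas KRT5 and NKX2-1, markers of basal and lung epithelium, had no count after 24 h and the mesenchymal filament gene VIM was abundant too (1040 to 1600 CPM). Summed over 12 airway epithelium markers, the level ran from 778 to 1100 CPM in every group except the 30-week controls, where it ran from 313 to 409 CPM. Most of this sum was KRT8 and KRT18. KRT19 was lower too, at 0.358 to 1.08 CPM in these controls against 2.17 to 3.99 CPM in exposed cells of 30 weeks. CDH1 of the same list was not, at 0.394 to 0.817 CPM against 0.556 to 0.579 CPM. In those same 3 controls, 12 skeletal muscle markers summed to 388 to 498 CPM, against 17.2 to 44.1 CPM in the other 12 samples, and 9 mesenchymal markers to 1950 to 2480 CPM against 1330 to 1830. Most of the mesenchymal sum was VIM, and COL1A2 of the same list went the other way, with 0 to 0.65 CPM in these controls against 1.3 to 10.3 CPM in all other samples. A fixed list of 6 abundant small noncoding RNAs, RN7SL1 and RN7SK among them, took 22.3% to 31% of the counts of these controls. The share was 17% to 21.5% in exposed cells of that time and 9.75% to 12.9% in the earlier samples. These 3 control samples stood apart from all others, and every result at 30 weeks that involves controls rests on them. Because all 3 controls of that time point share this pattern, it and the absence of exposure cannot be told apart.

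All positions are in GRCh38. H19 (chr11:1995176-2001266), IGF2 (chr11:2129117-2149566) and CDKN1C (chr11:2883218-2885775) share a cluster at the tip of chromosome 11, DLK1 (chr14:100726892-100738224) and MEG3 (chr14:100826108-100861026) share a domain of chromosome 14, and PEG10 (chr7:94656325-94669695) and MEST (chr7:130486175-130506465) lie far apart on chromosome 7. NNAT (chr20:37521250-37523690), PLAGL1 (chr6:143940300-144064599) and PEG3 (chr19:56810082-56840726) each lie apart from the other imprinted genes of the list. The strand used in counting is not given in the sources used here, and 20.1% of the canonical exon bases of MEST, 7.85% of PEG10 and 6.75% of NNAT overlap exons of genes on the other strand (COPG2, SGCE and BLCAP among them), whose reads cannot be told apart without it. PLAGL1 shares 5.2% of its bases with HYMAI on the same strand, and IGF2 shares 45.1% with INS-IGF2 and others. PEG3 shares the most, 56.8% on either strand, and 14.3% on the same strand, with ZIM2. The canonical exon bases of H19, MEG3, DLK1 and CDKN1C overlap no exon of another gene. Exons outside the canonical transcripts were not compared, and MIR675 lies in an exon of H19.

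Of the 10 imprinted genes, 7 passed the filter on low counts and were tested. IGF2, the fetal growth factor encoded next to H19, had 0 to 2 counts in every sample, DLK1, a Notch-related membrane protein of the preadipocyte, had 0 or 1, and PEG3, a zinc-finger protein, had 0 to 2. None of the 3 was detectable beyond the floor at this depth, and no change is given for them. Per kilobase of the GENCODE canonical transcript, MEST was the most abundant imprinted gene in every condition, with group means of 153 CPM per kb in controls at 24 h and 51.2 at 15 weeks. PEG10 came next, with 113 and 12.8 CPM per kb in the same groups. The exception was the 30-week controls, where H19 came second at 77.1 CPM per kb, between MEST at 104 and PEG10 at 31.4, and this order was the same when all annotated exons of a gene were counted in its length. The per-kb levels of CDKN1C, NNAT, PLAGL1 and, at 24 h, MEG3 and H19 lay between 0.333 and 1.95 in all groups, and their order changed with the length used.

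**Figure D1:**
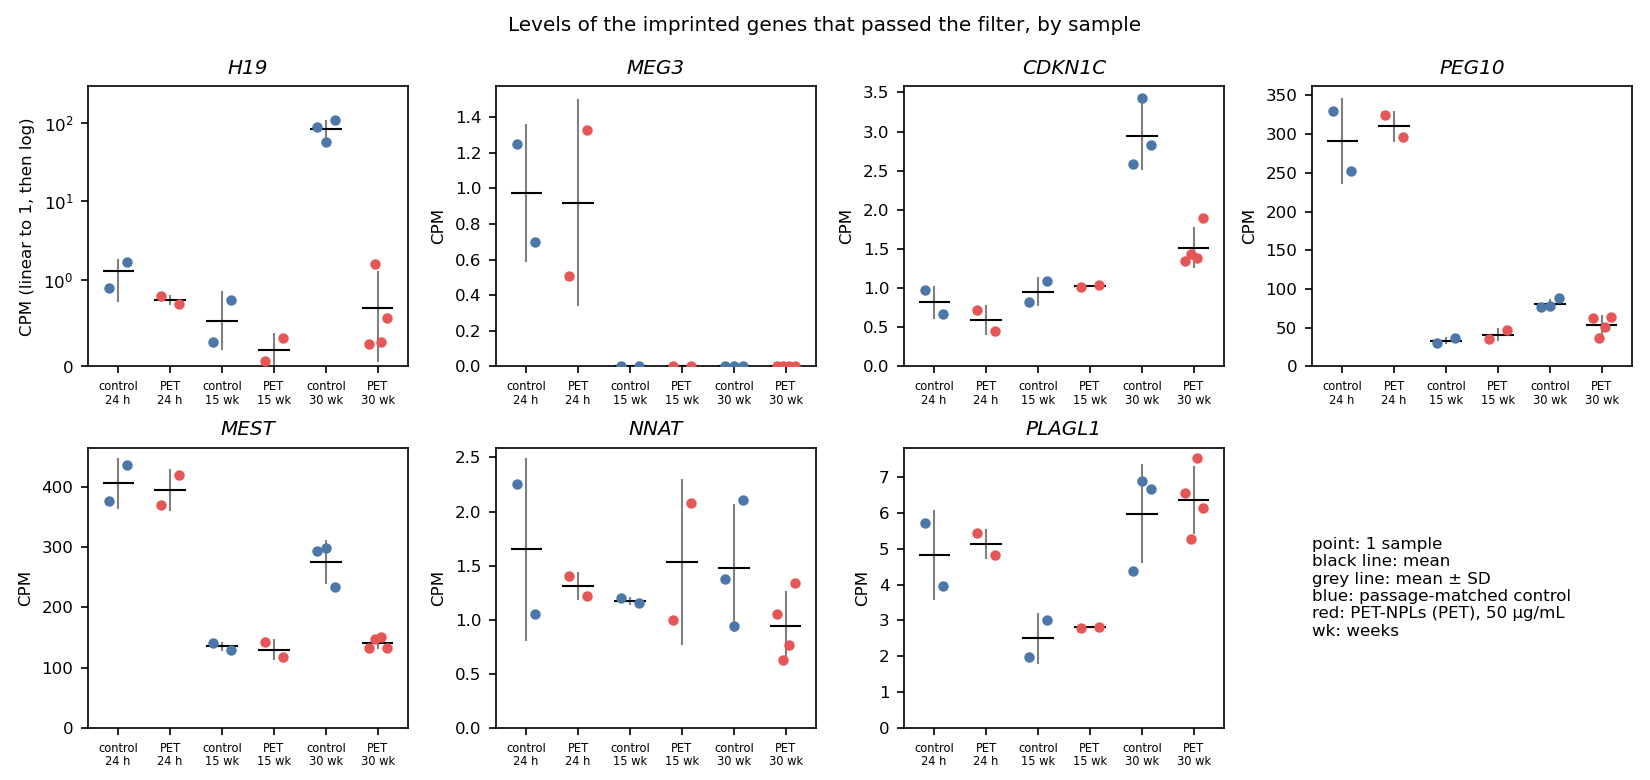
Levels of the 7 imprinted genes that passed the filter, as CPM (vertical axis, linear except for H19, which is linear to 1 and then logarithmic) in the 6 conditions (horizontal axis, PET standing for PET-NPLs and wk for weeks). Points are samples, black lines means and grey lines the mean ± SD; H19 stands at 57.3 to 110 CPM in the 30-week controls alone, MEG3 is at 0 after 24 h, and PEG10 and MEST are highest at 24 h.

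After exposure for 24 h or for 15 weeks, 0 of the imprinted genes passed the test. No gene at all passed it at either time (0% of the 16740 genes tested, edgeR quasi-likelihood test, Benjamini-Hochberg adjusted p under 0.05), although 277 and 823 genes had an unadjusted p under 0.05, none of them an imprinted gene of this list. DESeq2 and limma-voom with surrogate variables also called 0 of the imprinted genes at both times. How many of all genes these methods called is not given here, and the paper, with limma-voom and surrogate variables, reports genes called at 15 weeks. At 24 h the levels in control and exposed cells were 406 ± 42.4 and 395 ± 34.8 CPM for MEST and 291 ± 54.9 and 310 ± 19.9 CPM for PEG10 (mean ± SD, n = 2 each). The fitted difference for MEST was -0.042 on the log2 scale, with a 95% interval from -0.36 to 0.28. At 15 weeks they were 135 ± 7.61 and 130 ± 16.7 CPM for MEST and 33.2 ± 4.71 and 41.1 ± 8.31 CPM for PEG10. For H19, with 19 to 48 counts at 24 h, the interval ran from -2.09 to 0.59 at 24 h and from -3.32 to 0.40 at 15 weeks, and the fitted value of -0.75 at 24 h (1.68-fold) could not be told from no change at this depth.

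At 30 weeks, H19, MEST, CDKN1C and PEG10 were lower in exposed than in control cells, and no imprinted gene of the list was higher. The 4 are read against a background of 23.7% of all genes called in this comparison. The median fitted change over the 6 imprinted genes above the floor was -0.80 on the log2 scale, against 0.0078 over all genes tested.

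H19, a noncoding RNA of the fetus and of skeletal muscle, had 2055, 1587 and 3061 counts in the 3 controls (88.4, 57.3 and 110 CPM) and 7, 45, 8 and 16 counts in the 4 exposed samples (0.254, 1.58, 0.278 and 0.563 CPM). The groups did not overlap, and the highest exposed sample lay far below the lowest control. The fitted change was -6.98 on the log2 scale, or 126-fold lower (SE 0.44, edgeR adjusted p = 1.4e-08). The exposed level of 0.668 ± 0.622 CPM (n = 4) lay within the range of 0.062 to 1.68 CPM seen in the 8 samples of 24 h and 15 weeks and the 30-week controls lay above it. MIR675, the microRNA gene within an exon of H19, had 0 counts in all 15 samples. How reads that fall on both genes were counted is not given in the sources used here. These 0 counts therefore do not show that the MIR675 precursor was absent.

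Several muscle genes of the marker list followed the same samples, and others of the list did not. MYOD1, the myogenic master regulator, stood at 106, 65.8 and 84.4 CPM in the 3 controls and at 0.313 to 0.761 CPM in the 4 exposed samples. CHRNA1, a subunit of the muscle acetylcholine receptor, stood at 46.7 to 48.5 CPM against 0 to 0.456 CPM. TNNT1, a slow muscle troponin gene present in every sample, stood at 186 to 235 CPM against 26.4 to 38.1 CPM. MYOG, DES, CHRNA1 and JSRP1 stood at 0 to 0.456 CPM outside the 30-week controls. CHRNA1 and JSRP1 had 15 and 14 counts in 15-week control replicate 2, above the floor. All of these entered the test mainly through the 30-week controls, so no count of the markers called is given. MYH3 was not higher in these controls, at 2.65 to 3.44 CPM against 3.02 to 4.06 CPM in exposed cells of 30 weeks. MYH8 and CKM never rose above the floor of 3 counts, and MYF5 and MYF6 had no count in any sample. At 15 weeks MYOD1 was already higher than at 24 h, where it stood at 0.152 to 0.468 CPM. It stood at 2.02 and 5.72 CPM in the 15-week controls and at 1.36 and 1.56 CPM in the 15-week exposed samples. TNNT1 went the other way, from 27.3 to 35.8 CPM at 24 h to 10.1 to 20.5 CPM at 15 weeks. These muscle genes were named after their values had been seen. The part of the muscle genes in the H19 result was not tested.

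**Figure D2:**
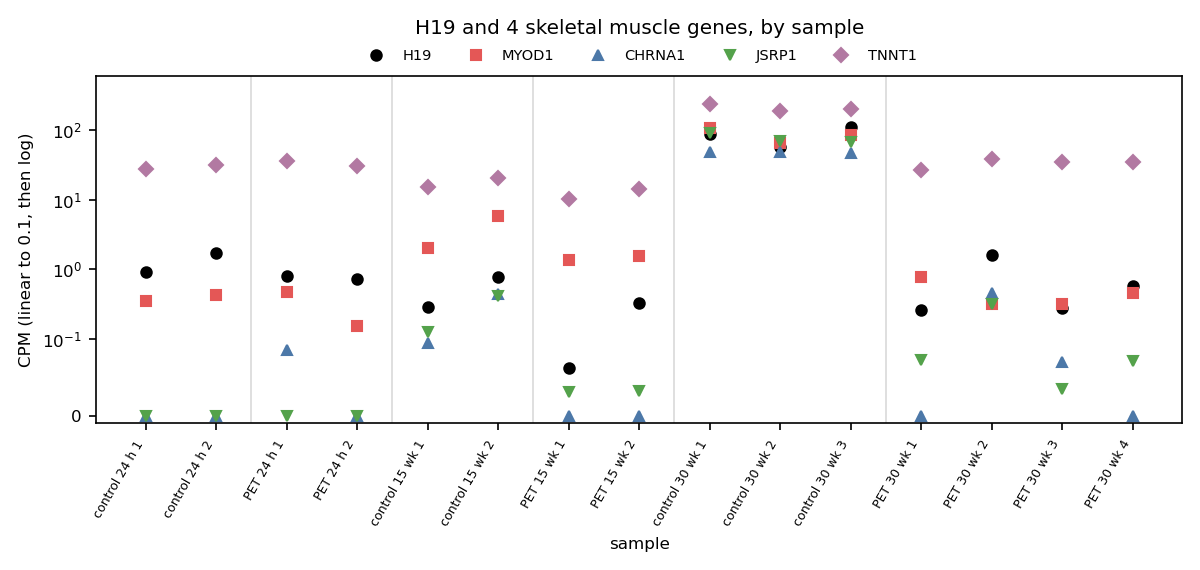
Levels of H19 and of 4 skeletal muscle genes as CPM (vertical axis, linear to 0.1 and then logarithmic) in each of the 15 samples (horizontal axis). H19, MYOD1, CHRNA1 and JSRP1 all lie between 46.7 and 110 CPM in the 3 controls at 30 weeks, and H19 is below 2 CPM in every other sample.

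MEST, an enzyme-like protein of the hydrolase fold made in fetal mesoderm, stood at 294, 298 and 233 CPM in the 30-week controls and at 133, 148, 150 and 132 CPM in exposed cells. Every exposed sample lay below every control. The change was -0.97 on the log2 scale, or 1.96-fold lower (SE 0.123, edgeR adjusted p = 2.82e-05), and it kept its direction and call in all 13 alternative analyses. MIR335, whose hairpin lies in an intron of MEST and gives the microRNAs printed above, had 21, 16 and 17 counts in the controls and 1, 8, 7 and 6 counts in exposed cells. Of 14 listed microRNA genes of imprinted domains it was the only one tested, the others being under the filter. Its row was also lower, by 1.81 on the log2 scale (SE 0.50, adjusted p = 0.0152). A total RNA library also holds unspliced MEST transcript, and reads from it and from the microRNA precursor cannot be told apart in this row.

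**Figure D3:**
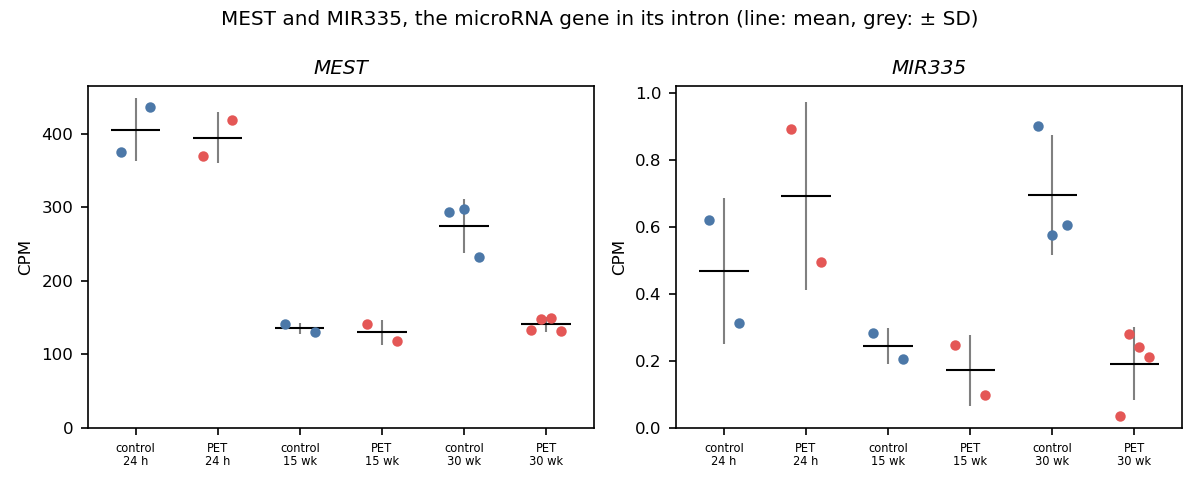
Levels of MEST and of MIR335, the microRNA gene in its intron, as CPM (vertical axes, each from 0) in the 6 conditions (horizontal axes). Points are samples, black lines means and grey lines ± SD; at 30 weeks the exposed samples lie below the controls for both genes, at 132 to 150 against 233 to 298 CPM for MEST.

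CDKN1C, which encodes the cyclin-dependent kinase inhibitor p57 and lies in the same imprinted cluster of chromosome 11 as H19, stood at 2.58, 3.43 and 2.83 CPM in the controls (60 to 95 counts) and at 1.34, 1.44, 1.39 and 1.90 CPM in exposed cells (37 to 54 counts). The groups did not overlap. The fitted change was -0.96 (1.94-fold lower, SE 0.23, edgeR adjusted p = 0.00652), and was called in all 13 alternatives.

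PEG10, a gene derived from a retrotransposon and needed for the placenta, stood at 77.2, 78.3 and 87.9 CPM in the controls and at 63.1, 36.3, 50.4 and 64.0 CPM in exposed cells. The groups did not overlap, with exposed replicate 2 the lowest of all, and the call held without that sample. The fitted change was -0.60 (1.52-fold lower, SE 0.177, edgeR adjusted p = 0.0213). This call was lost when the 30-week samples were fitted alone and without control replicate 1, control replicate 3 or exposed replicate 3, with adjusted p up to 0.0685.

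NNAT, a small membrane proteolipid of neurons that lies inside an intron of BLCAP, had 32, 26 and 59 counts in the controls and 29, 18, 22 and 38 in exposed cells. The groups overlapped, and the fitted change of -0.64 (95% interval -1.37 to 0.083, adjusted p = 0.231) did not pass the test. PLAGL1, a zinc-finger factor that arrests the cell cycle and acts on other imprinted genes, stood at 5.98 ± 1.38 CPM in controls (n = 3) and 6.37 ± 0.951 CPM in exposed cells (n = 4). Its fitted change was 0.087, with a 95% interval from -0.31 to 0.48.

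Over time in culture, the comparisons from 24 h to 15 weeks lie within batch 1. From 24 h to 15 weeks, MEG3, PEG10, MEST and PLAGL1 fell in control cells, where 24.9% of all genes were called, and the same 4 genes fell in exposed cells, where 26.0% were called. H19, CDKN1C and NNAT passed the test in neither arm.

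MEG3, a noncoding RNA with growth-restraining activity, had 36 and 20 counts in the 24 h controls and 12 and 35 counts in the 24 h exposed samples. It had 0 counts in all 11 samples of 15 and 30 weeks. Against a floor of 3 counts per library, its level at 15 weeks was at least 10.6-fold lower in controls and at least 9.69-fold lower in exposed cells (edgeR adjusted p = 0.00293 and 0.00335). DESeq2 did not call either change (adjusted p = 0.374 and 0.376). MEG3 passed the filter only through the 24 h samples, so this call is no evidence beyond the counts.

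MEG3 lies between DLK1 and DIO3 on chromosome 14 (100726892 to 101563452), in an imprinted domain whose noncoding RNAs, small nucleolar RNAs and microRNAs are normally transcribed from the maternal copy. This region was looked at as a whole after the MEG3 values had been seen, and no test was made on the region as a whole. Of its 104 rows, 49 had a count in any sample, and their sum was 92 and 96 counts in the 24 h controls and 54 and 96 in the 24 h exposed samples. In the 11 later samples the sum was 0 in all but 1, a 30-week control with a single count on DLK1. Over the 4 samples of 24 h, the counts came from MEG3 (103), the small nucleolar RNA gene SNORD114-20 (41), the retrotransposon-derived gene RTL1 (30), MEG8 (27), MEG9 (8), MIR134 (5) and others. Of the 9 genes tested within 1 Mb of MEG3, EML1 was higher at 15 weeks in controls and WARS1, WDR25 and SNORD114-20 were lower. SNORD114-20 is a row of the region itself and had no count after 24 h. Like MEG3, it passed the filter only through the 24 h samples, so its call is no evidence beyond the counts.

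**Figure D4:**
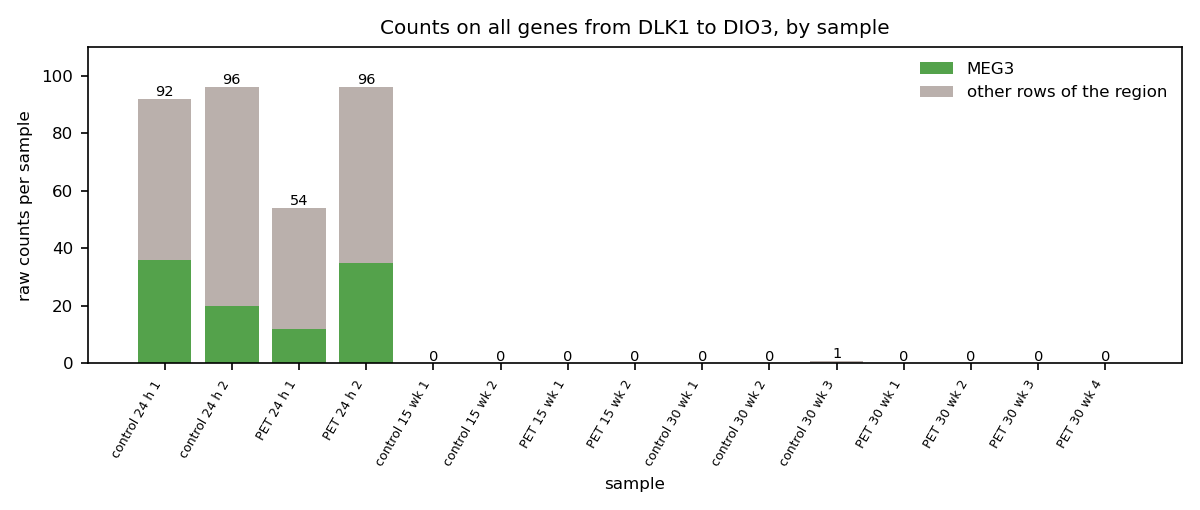
Raw counts summed over the 104 rows from DLK1 to DIO3 (bar height, vertical axis from 0) in each of the 15 samples (horizontal axis), with MEG3 in green and the other rows in grey. The 4 samples of 24 h hold 54 to 96 counts each, and the 11 later samples hold 0 or 1.

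PEG10 stood at 330 and 252 CPM in the 24 h controls and at 29.9 and 36.5 CPM in the 15-week controls. In exposed cells it stood at 324 and 296 CPM and then at 35.2 and 46.9 CPM. The fall was 8.76-fold in controls (log2 change -3.13, SE 0.251, adjusted p = 2.26e-07) and 7.56-fold in exposed cells (-2.92, SE 0.249, adjusted p = 4.09e-07), with no overlap in either arm. The 9 genes tested within 1 Mb of PEG10 had a median change of -0.62 in controls and 0.0064 in exposed cells, and 3 were lower in each arm (TFPI2, CASD1 and PPP1R9A in controls, and COL1A2, SGCE and PPP1R9A in exposed cells).

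MEST stood at 376 and 436 CPM in the 24 h controls and at 141 and 130 CPM in the 15-week controls. The exposed samples stood at 370 and 419 CPM and then at 142 and 118 CPM. The 2 arms gave fitted changes of -1.59 (SE 0.166, adjusted p = 3.98e-06) and -1.61 (SE 0.166, adjusted p = 3.03e-06), the latter 3.04-fold. CPA4, a carboxypeptidase gene of the same imprinted domain, was lower as well, with changes of -1.57 in controls and -2.26 in exposed cells. MIR335 passed the test in exposed cells only (-1.96, adjusted p = 0.0408, against -0.93 in controls), and the difference between the arms was -1.03 and did not pass.

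PLAGL1 stood at 5.72 and 3.95 CPM in the 24 h controls and at 1.99 and 3.01 CPM at 15 weeks, a change of -0.95 (SE 0.277, adjusted p = 0.0193). In exposed cells it stood at 5.44 and 4.84 CPM and then at 2.79 and 2.82 CPM, a change of -0.87 (SE 0.276, adjusted p = 0.0289). The groups did not overlap, but the call was lost without control replicate 1 of either time and, in exposed cells, without any 1 of the 4 samples, each such fit having 1 sample left in an arm. Whether these changes over time differed between exposed and control cells was tested for each gene. With edgeR, 0 of the imprinted genes and 0% of all genes passed, with 0 imprinted genes and 644 genes at an unadjusted p under 0.05. DESeq2 and limma-voom with surrogate variables also called 0 imprinted genes, and their counts over all genes are not given here.

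The step from 15 to 30 weeks crosses from batch 1 to batch 2, so time and batch cannot be told apart in it. In control cells 5 of the imprinted genes were higher at 30 weeks, H19, CDKN1C, PEG10, MEST and PLAGL1, where 50.3% of all genes were called. H19 rose by 7.31 on the log2 scale (159-fold, SE 0.611, adjusted p = 3.2e-07), from 9 and 26 counts to 1587 to 3061. CDKN1C rose by 1.62, PEG10 by 1.29, PLAGL1 by 1.26 and MEST by 1.02 (adjusted p from 5.47e-05 to 0.000799), in each case with all 3 samples of 30 weeks above both of 15 weeks. PEG10 and MEST reached 81.1 ± 5.85 and 275 ± 36.4 CPM (n = 3), which was below every sample of 24 h, while PLAGL1 at 4.39 to 6.90 CPM overlapped its 24 h samples. The summed level of the skeletal muscle markers went from 22.2 and 32.4 CPM to 388 to 498 CPM over the same step, and the part of these genes in it was not tested.

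In exposed cells only PLAGL1 was higher at 30 weeks, from 2.79 and 2.82 CPM to 5.26 to 7.54 CPM (log2 change 1.18, SE 0.245, adjusted p = 0.00113), where 46.0% of all genes were called. MEST stood at 130 ± 16.7 CPM at 15 weeks (n = 2) and 141 ± 9.67 CPM at 30 weeks (n = 4), a fitted change of 0.12 with a 95% interval from -0.16 to 0.39. H19 gave a fitted change of 1.79 (adjusted p = 0.0907), PEG10 of 0.38 (0.143) and CDKN1C of 0.56 (0.121). H19 was called when genes with few counts were kept and when exposed 30-week replicate 1 was left out. PEG10 was called with surrogate variables and without exposed 30-week replicate 2.

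**Figure D5:**
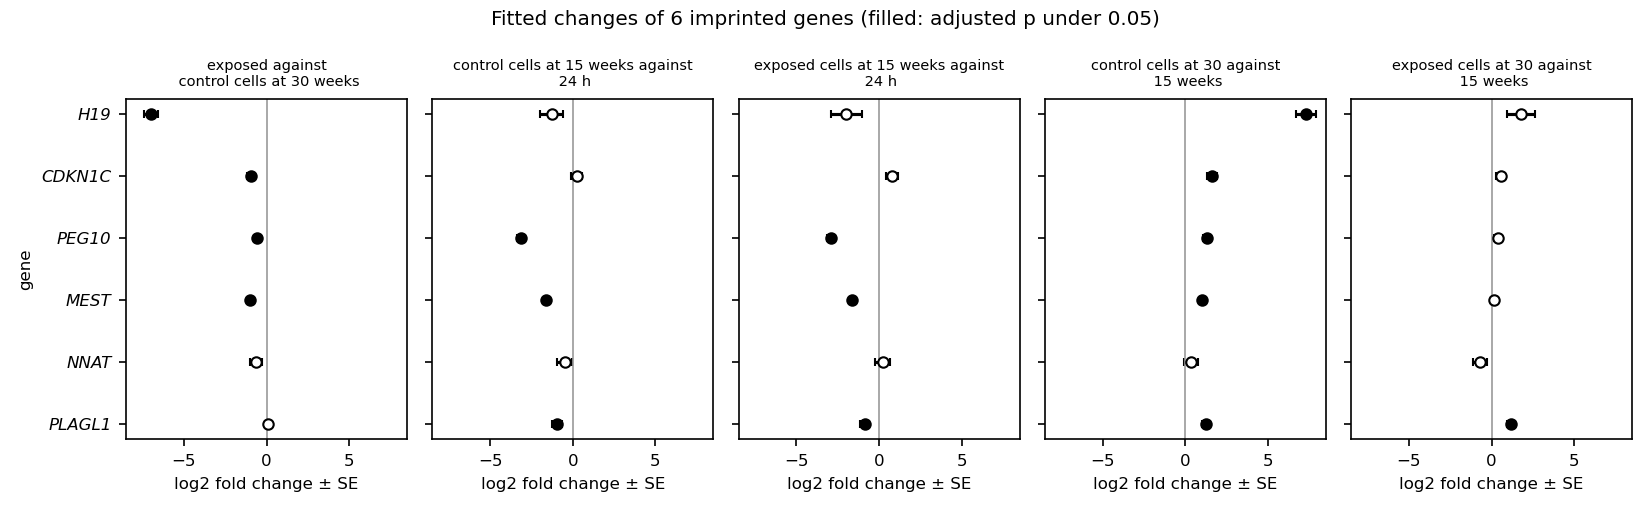
Fitted log2 fold changes (horizontal axes, bars ± SE, edgeR) of 6 imprinted genes (vertical axis) in 5 comparisons, filled where the adjusted p is under 0.05. Exposed cells at 30 weeks show lower H19, CDKN1C, PEG10 and MEST, and the rise from 15 to 30 weeks of these 4 genes passes the test in control cells and not in exposed cells.

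The effect of exposure itself differed between 30 and 15 weeks for H19 and MEST, in a test of the difference that called 4.74% of all genes. For H19 the effect was more negative at 30 weeks, by a fitted difference of -5.52 on the log2 scale (SE 1.37, adjusted p = 0.0287), and for MEST the difference was -0.91 (SE 0.204, adjusted p = 0.0147). For PEG10 (-0.91, adjusted p = 0.106) and CDKN1C (-1.06, adjusted p = 0.191) it did not pass, although PEG10 was called with surrogate variables (adjusted p = 0.00688, limma-voom) and without exposed replicate 2 of 30 weeks (adjusted p = 0.033, edgeR). The H19 call was lost without control replicate 1 or exposed replicate 2 of 15 weeks or control replicate 1 of 30 weeks, and the MEST call without control replicate 1 or 2 or exposed replicate 1 of 15 weeks. This test, the comparisons over time and the comparison at 30 weeks share samples, the 30-week controls among them, and are not separate evidence.

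Of other genes in the same imprinted domains, about as many were called as over all genes. Of 27 such genes other than the 10, 13 were tested and 3 were called, close to the 23.7% of all genes called, and their median change was 0.17. PPP1R9A, a cytoskeletal scaffold gene next to PEG10, and TFPI2, a protease inhibitor gene, were higher in exposed cells, by 1.20 and 0.60 on the log2 scale (adjusted p = 0.000634 and 0.0304). BLCAP, the host gene of NNAT, was lower (-0.87, adjusted p = 4.14e-05), at 48.3 ± 6.62 against 88.4 ± 3.10 CPM. KCNQ1OT1, the noncoding RNA that covers the CDKN1C domain, stood at 27.4 ± 9.59 CPM in 30-week controls and 29.3 ± 7.16 CPM in exposed cells, while CDKN1C in the same samples did not overlap. From 24 h to 15 weeks 4 of the 13 were lower in controls and 4 in exposed cells, and none was higher, with PPP1R9A, CPA4 and BLCAP lower in both arms (24.9% and 26.0% of all genes called). From 15 to 30 weeks 3 were higher and 4 lower in controls, and 3 were higher and 2 lower in exposed cells (50.3% and 46.0% of all genes called), so these shares lay near the background too. The exposure effect on BLCAP differed between 30 and 15 weeks, by -1.03 (adjusted p = 0.00409).

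Among 20 imprinted genes of other domains, 18 had a row, 13 were tested and 5 were called at 30 weeks, where 23.7% of all genes were called. NLRP2, INPP5F and GRB10 were higher in exposed cells, by 0.77, 0.54 and 0.43, and NAP1L5 and DIRAS3 were lower, by fitted changes of -1.37 and -1.13. DIRAS3, a growth-restraining Ras-related gene, had at least 21 counts in each control and at most 14 in each exposed sample. From 24 h to 15 weeks 5 were called in controls (3 higher, 2 lower) and 2 in exposed cells, and from 15 to 30 weeks 6 (2 higher, 4 lower) and 8 (4 higher, 4 lower). Over all genes these 4 comparisons called 24.9%, 26.0%, 50.3% and 46.0%, and nothing particular to the list is read from its counts. From 24 h to 15 weeks, ZDBF2 rose in both arms (1.01 in controls and 1.15 in exposed cells) and GRB10, an adaptor that restrains insulin signaling, fell in both (-0.47 and -0.57). MKRN3, a ubiquitin ligase gene of chromosome 15, had 0 counts in all 4 samples of 24 h and 8 and 15 counts in the 15-week controls, with 0 and 2 in the exposed samples. It passed the filter only through the groups in which it is high, so its call is no evidence beyond these counts.

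The genes that set, keep or erase imprints include the methyltransferases DNMT1, DNMT3A and DNMT3L and the demethylating TET enzymes. Of 20 listed, 16 were tested and 3 were called at 30 weeks, where 23.7% of all genes were called. TET1 (0.82) and SMCHD1 (0.40) were higher in exposed cells and TET2 (-0.42) was lower. From 24 h to 15 weeks only DNMT3L, a cofactor of the germ-line methyltransferases, was called, and it was higher in both arms, with 0 or 1 count per sample at 24 h and 10 to 16 counts at 15 weeks. It passed the filter only through the later samples, so this call too is no evidence beyond the counts. From 15 to 30 weeks, across the batches, 10 of the 16 were called in controls (2 higher, 8 lower) and 7 in exposed cells (1 higher, 6 lower), with UHRF1 higher and TET1, TET2, CTCF, TDG, ATRX and SMCHD1 lower in both, where 50.3% and 46.0% of all genes were called.

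All 6 listed receptors and mRNA-binding proteins of IGF2 were tested, and they were listed by function and not by position. INSR (0.84), IGF2BP1 (1.45) and IGF2BP3 (0.59) were higher in exposed cells at 30 weeks, where 23.7% of all genes were called, and none of the 6 was called at 24 h or 15 weeks (edgeR). IGF2BP1, an RNA-binding protein of fetal tissue, stood at 9.04 ± 1.55 CPM in the controls and 24.6 ± 8.34 CPM in exposed cells, with no overlap. IGF2 itself stayed at the floor in both. From 15 to 30 weeks 3 of the 6 were called in controls (2 higher, 1 lower) and 5 in exposed cells (4 higher, 1 lower), against 50.3% and 46.0% of all genes, with IGF2R and IGF2BP1 higher and IGF2BP3 lower in both arms.

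The genes around H19, MEST and PEG10 were called at 30 weeks at shares that may be read against the 23.7% of all genes. Of 22 genes tested within 1 Mb of H19, 2 were higher and 4 were lower in exposed cells (IFITM10, CTSD, MRPL23 and CDKN1C), and their median change was 0.029. Around MEST, 21 genes had a median change of -0.022, with 1 higher and 3 lower, MIR335 among the latter. Around PEG10, 3 of 9 genes were higher, TFPI2, COL1A2 and PPP1R9A, and none was lower.

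Over the 15 samples, genes whose log2 CPM was most like that of H19 included PDE10A (Pearson r = 0.969) and TSHZ3 (0.966), among 13448 genes with an average of at least 1 CPM. This likeness rested on the 30-week controls, since without them the values were 0.687 and 0.583 over 12 samples. For PEG10 the closest genes were PLCE1 (0.971), LDHA (0.965) and SLC2A1 (0.964), and for MEST they were TMEM25 (0.974), COL8A1 (0.965) and ATRNL1 (0.965), all of them at 0.966 or more without the 30-week controls. For CDKN1C, PLAGL1 and NNAT the closest were BCAN (0.958), AFF1 (0.935) and FIGN (0.815). Among the imprinted genes themselves, the highest values were those of PEG10 with MEG3 (0.918), PEG10 with MEST (0.897) and MEST with MEG3 (0.806). MEG3 averaged 0.253 CPM, under the minimum of 1 CPM used above, and had no count after 24 h. Its values therefore restate the difference between 24 h and the later samples. These values are descriptions over samples that share batches, time points and the 3 controls that stand apart.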

How the data were processed

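RNA was sequenced from 15 samples of BEAS-2B cells. The authors filtered the reads with Rfastp, discarding those under 20 bases, aligned the rest to GRCh38 and assigned them to genes with Rsubread; the labels name featureCounts and hg38. The count values used here are the raw counts the authors deposited, with no normalization, for 28395 genes named by Entrez number, and 0 columns were left unused. The total per sample ran from 23143202 to 31459990 counts.

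Genes were named and placed by RefSeq GRCh38.p14, which gave 27745 symbols, and exon lengths came from GENCODE 44. In R 4.3.3, genes were filtered with filterByExpr of edgeR 4.0.16 on the 6 conditions (minimum count 10, minimum total 15; 16740 kept), scaled by TMM and fitted with the quasi-likelihood model on all 15 samples, 1 mean per condition, a design written for this work. The paper's methods use surrogate variables (sva) with limma and voom, which was run as an alternative. P-values were adjusted over all genes tested (Benjamini-Hochberg, threshold 0.05), and an increase or decrease is named only past it. SE is that of the fitted log2 fold change and intervals are normal 95% intervals from it. CPM are counts scaled by TMM library size, and log2 CPM for likeness used a prior count of 2. Where no sample compared had more than 3 counts of a gene (the floor), no change is given; floors cover counting error only. The procedure was tested on simulated data.

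Alternatives were DESeq2 1.42.0, limma-voom (limma 3.58.1, sva 3.50.0, 2 surrogate variables), no filter, upper-quartile scaling, the replicate number as a block, each time point alone and each sample left out. The genes and lists were chosen with earlier results of these data known. All 10 imprinted genes were named in every comparison; of other lists, called genes were named, at most the 4 largest changes in each direction, and neighbors were genes tested within 1 Mb. The muscle markers, KCNQ1OT1 and the DLK1 to DIO3 region were named after their values were seen. For each imprinted gene averaging at least 1 CPM, the genes with the highest correlation were named, and an item of these is not reported here.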

Additional observations from a re-analysis of the deposited data

Results flagged for a closer look

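The effect of exposure on H19 and on MEST was drawn out because it differed between 2 time points by a test of the difference itself. For H19 the effect on the log2 scale was -1.46 at 15 weeks and -6.98 at 30 weeks, a difference of -5.52 (SE 1.37, edgeR adjusted p = 0.0287). For MEST it was -0.061 at 15 weeks and -0.97 at 30 weeks, a difference of -0.91 (SE 0.204, edgeR adjusted p = 0.0147). The 30-week controls in which both genes are higher also carry several of the skeletal muscle markers, and the part of these in the differences was not tested. Among the 4 exposed samples at 30 weeks, 6 imprinted genes were examined for a single sample far from the others, and in none did Dixon's ratio pass its 95% critical value.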

How the results depend on the processing

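The counts of imprinted genes called stayed within 1.5 times the main count in 7 of the 9 comparisons. In exposed cells from 15 to 30 weeks the count went from 1 to 2 with surrogate variables and to 2 without a filter, and ran from 1 to 2 with samples left out. For the difference of the exposure effect between 30 and 15 weeks it was 2, and ran from 0 to 3 with samples left out, the 0 being the fit without control replicate 1 of 15 weeks. The cause of these moves was not tested, beyond the smaller number of samples. No change of a called gene turned its direction.

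Changes that missed the threshold turned sign in some of the alternative fits, and the ranges given here are over all alternatives, fits with a sample left out among them. At 24 h, exposed against control, the log2 change then ran from -0.92 to 0.45 for MEG3, -0.09 to 0.29 for PEG10, -0.15 to 0.07 for MEST, -0.78 to 0.31 for NNAT and -0.15 to 0.37 for PLAGL1. At 15 weeks it ran from -0.08 to 0.33 for CDKN1C, -0.20 to 0.07 for MEST, -0.24 to 0.82 for NNAT and -0.09 to 0.50 for PLAGL1, and at 30 weeks from -0.08 to 0.20 for PLAGL1. From 24 h to 15 weeks it ran from -0.02 to 0.52 for CDKN1C and -0.93 to 0.16 for NNAT in controls, and from -0.39 to 0.66 for NNAT in exposed cells. From 15 to 30 weeks it ran from -0.03 to 0.58 for NNAT in controls and -0.01 to 0.25 for MEST in exposed cells, and the difference of the exposure effect for PLAGL1 ran from -0.41 to 0.18.

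Same-numbered control and exposed samples did not deviate together in every pair (correlations of -0.06 at 24 h, 0.029 at 15 weeks and -0.118, 0.303 and 0.098 at 30 weeks), so the numbers were not taken as pairs. With 2 samples a group the deviations mirror each other, which leaves a single value at 24 h and at 15 weeks. These few values cannot exclude a pairing. With the replicate block, 4 imprinted genes were called at 30 weeks, as without it, and no count over the imprinted genes changed. With 2 samples a group and few counts for H19, MEG3, CDKN1C and NNAT, depth limits what can be seen at 24 h and 15 weeks.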
